A study of Mus musculus with 4 samples.

Results

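The clustered protocadherin genes were taken as the protein-coding genes on mouse chromosome 18 in the GENCODE vM21 annotation whose names start with Pcdha, Pcdhb or Pcdhg. This rule gave 57 of the 21938 protein-coding genes, with 14 in the Pcdha cluster, 22 in the Pcdhb cluster and 21 in the Pcdhg cluster. All 57 genes lie on the plus strand. They have 56 distinct symbols, since Pcdha11 is the symbol of 2 genes. Pcdhgb8, which is annotated as a polymorphic pseudogene, was not counted and had no peak within 1 kb of its 5′ end.

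Protocadherins of the clusters are adhesion proteins of the cell surface, best known from neurons, where each cell uses its own set of isoforms and recognises its own processes by them. In the Pcdha and Pcdhg clusters, each variable exon has its own promoter and is spliced to the constant exons at the end of the cluster, while each Pcdhb gene codes for its protein in a single exon. The choice of a promoter in neurons involves the looping factor CTCF and cohesin, and DNA methylation keeps promoters that are not chosen silent. The C-type genes at the ends of the Pcdha and Pcdhg clusters (Pcdhac1, Pcdhac2, Pcdhgc3, Pcdhgc4 and Pcdhgc5) are expressed more widely and without this choice. Uhrf1 brings the maintenance methyltransferase Dnmt1 to newly copied DNA.

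The series compared the liver of a Uhrf1-fl/fl male (WT) with the liver of a Uhrf1-fl/fl male that also carried Alb:Cre (Uhrf1hepKO), both from C57Bl/6 mice of 8 to 12 weeks on a normal diet. The Cre is driven by the albumin promoter, which is active in hepatocytes. These data do not show which cells of the liver lost Uhrf1. Chromatin accessibility was measured by ATACseq, in which the Tn5 transposase cuts open DNA, and the histone variant H2A.Z by ChIPseq of chromatin cut with micrococcal nuclease. Both assays used the same 2 livers, which gives 4 libraries with 1 library per condition, so no p-value is given.

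The lists held 10582 (WT) and 10764 (Uhrf1hepKO) ATACseq peaks and 51450 (WT) and 47135 (Uhrf1hepKO) H2A.Z peaks on chromosomes 1 to 19, X and Y. All 4 lists had a peak within 1 kb of the TSS of the deleted gene Uhrf1, with folds of 3.96 (WT) and 4.70 (Uhrf1hepKO) in ATACseq and of 6.58 and 6.04 in H2A.Z. A peak at the TSS does not check the deletion. A peak was counted at a TSS when it came within 1 kb of the 5′ end of the gene. Among 10 hepatocyte markers, 0 had an ATACseq peak at the TSS in WT and 2 (Alb and Cebpa) in Uhrf1hepKO, and 0 and 1 had an H2A.Z peak. The 6 Kupffer cell, 6 endothelial and 6 neuron markers had none in any list. Of 5 stellate cell markers, 1 had an H2A.Z peak in WT. Of 5 cholangiocyte markers, 1 had an ATACseq peak in WT and 2 had an H2A.Z peak in each genotype. Over all protein-coding genes, 26.4% (WT) and 24.1% (Uhrf1hepKO) had an ATACseq peak at the TSS and 46.0% and 44.5% an H2A.Z peak. The labelled tissue therefore cannot be read from TSS peaks of these markers. Of the 10 hepatocyte markers, 8 had no peak in any list, so a missing peak does not by itself show that a gene is inactive. A peak in fewer cells and a weaker peak in all cells cannot be told apart in whole liver.

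Few clustered protocadherin genes had a peak in these livers. At this distance, 51 of the 57 genes (89.5%, Wilson 95% interval 78.9 to 95.1) had no peak in any of the 4 lists, against 50.1% of all protein-coding genes. The 6 genes with a peak were Pcdha12, Pcdhga5, Pcdhgb6, Pcdhgb7, Pcdhga12 and Pcdhgc3. They make up 10.5% of the members, against 49.9% of all protein-coding genes. Wilson intervals cover counting error only.

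In ATACseq, 1 of the 57 genes had a peak in each genotype (1.75%, Wilson 95% interval 0.310 to 9.29). The share over all protein-coding genes was 26.4% in WT and 24.1% in Uhrf1hepKO. This gene was Pcdhgc3 in both. In H2A.Z, 6 of the 57 genes had a peak in WT (10.5%, Wilson 95% interval 4.91 to 21.1) and 3 in Uhrf1hepKO (5.26%, 1.81 to 14.4), beside 46.0% and 44.5% of all protein-coding genes. In all 4 lists the upper end of the interval lay below the share of all protein-coding genes. Pcdhgc3 was also the member with peaks of both assays, 1 of 57 in each genotype, where 24.4% (WT) and 21.8% (Uhrf1hepKO) of all genes had both.

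**Figure D1:**
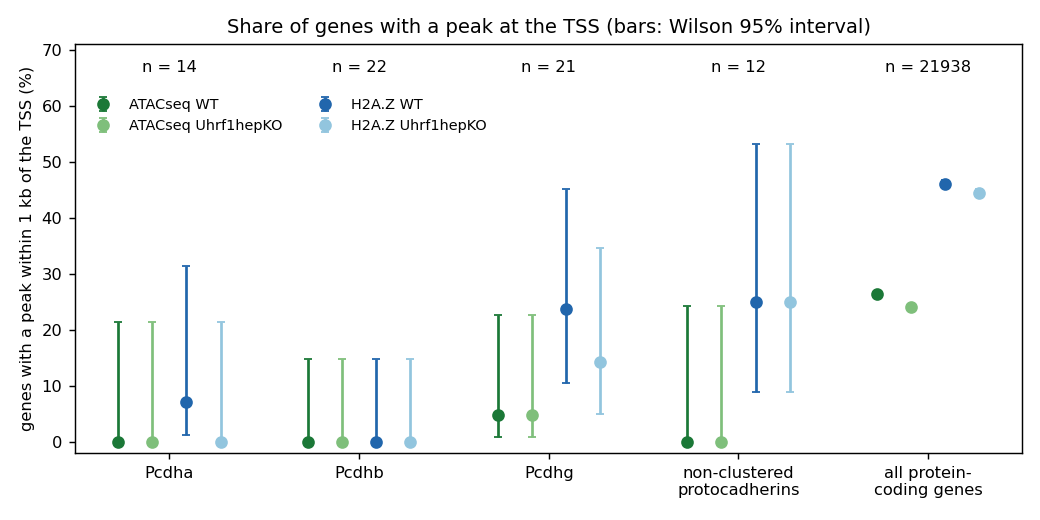
Share of genes with a peak at the TSS, no more than 1 kb away (y axis, percent), for each cluster, for 12 non-clustered protocadherins and for all protein-coding genes (x axis), with a colour per peak list and bars for the Wilson 95% interval. Pcdhb sits at 0 in all 4 lists, and the highest of the clusters is Pcdhg in WT H2A.Z at 23.8%, below the 46.0% of all protein-coding genes.

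The clusters differed in their counts. The Pcdhg cluster, which encodes the gamma protocadherins, had an H2A.Z peak at 5 of its 21 genes in WT (23.8%) and at 3 (14.3%) in Uhrf1hepKO, and an ATACseq peak at 1 gene in each. The Pcdha cluster had an H2A.Z peak at 1 of its 14 genes, Pcdha12, in WT, and none of its genes had a peak in the other 3 lists. In the Pcdhb cluster, 0 of 22 genes had a peak in any list, which allows a share of up to 13.6%. Of the 5 C-type genes, 1 had a peak in each list. The intervals of the clusters overlapped, as the plot of shares by cluster shows, and the differences between clusters were not tested.

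The peaks at the promoters are best seen gene by gene. Positions are 1-based in GRCm38. Folds are the authors' enrichment over background, and they are not scaled between libraries. The pileup of H2A.Z reads at a summit was recovered from the steps of the folds and is given with a Poisson 95% interval, which covers counting error only.

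Pcdhgc3 (ENSMUSG00000102918), a C-type gamma gene, was the member with a peak in all 4 lists. The WT ATACseq peak at chr18:37806170-37806813 had a width of 644 bp and a fold of 4.04, and it spanned the TSS from −194 to 449 bp. The Uhrf1hepKO ATACseq peak at chr18:37806147-37806259 had a width of 113 bp and a fold of 3.99, and it lay upstream of the TSS, from −217 to −105 bp. The pair overlapped upstream of the TSS, and the stretch over the first exon was in the WT list alone. The H2A.Z peaks lay in the variable exon of Pcdhgc3, from 317 to 430 bp in WT (fold 5.61, 22 reads, 13.8 to 33.3) and from 315 to 415 bp in Uhrf1hepKO (fold 4.42, 18 reads, 10.7 to 28.4). The WT ATACseq peak contained the WT H2A.Z peak, while the Uhrf1hepKO ATACseq peak ended before the Uhrf1hepKO H2A.Z peak began.

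Pcdhga5 (ENSMUSG00000103567) and Pcdhga12 (ENSMUSG00000102428), both gamma genes of subfamily A, had an H2A.Z peak in both genotypes and no ATACseq peak. At Pcdhga5 the peak lay at chr18:37694350-37694479 in WT (fold 5.36, 21 reads, 13 to 32.1) and at chr18:37694365-37694638 in Uhrf1hepKO (fold 6.04, 25 reads, 16.2 to 36.9). At Pcdhga12 it lay at chr18:37766004-37766098 in WT (fold 5.36, 21 reads) and at chr18:37765992-37766099 in Uhrf1hepKO (fold 5.58, 23 reads, 14.6 to 34.5). The read intervals of the genotypes overlapped at each of these genes and at Pcdhgc3.

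Pcdhgb6 (ENSMUSG00000103088) and Pcdhgb7 (ENSMUSG00000104063), consecutive genes of gamma subfamily B with Pcdhga10, which had no peak, between them, and Pcdha12 (ENSMUSG00000103310), an alpha gene, had an H2A.Z peak in WT and none in Uhrf1hepKO. The Pcdhgb6 peak at chr18:37742118-37742214 had a fold of 3.90 (15 reads, 8.40 to 24.7), and the Pcdhgb7 peak at chr18:37751632-37751740 a fold of 6.09 (24 reads, 15.4 to 35.7). Both summits lay 77 bp downstream of the TSS. The Pcdha12 peak at chr18:37020005-37020130 had a fold of 4.63 (18 reads, 10.7 to 28.4) and lay upstream of the TSS, from −144 to −19 bp. Its edge is also 549 bp from the 5′ end of Gm10545, an antisense gene, so the peak cannot be assigned to Pcdha12 alone.

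**Figure D2:**
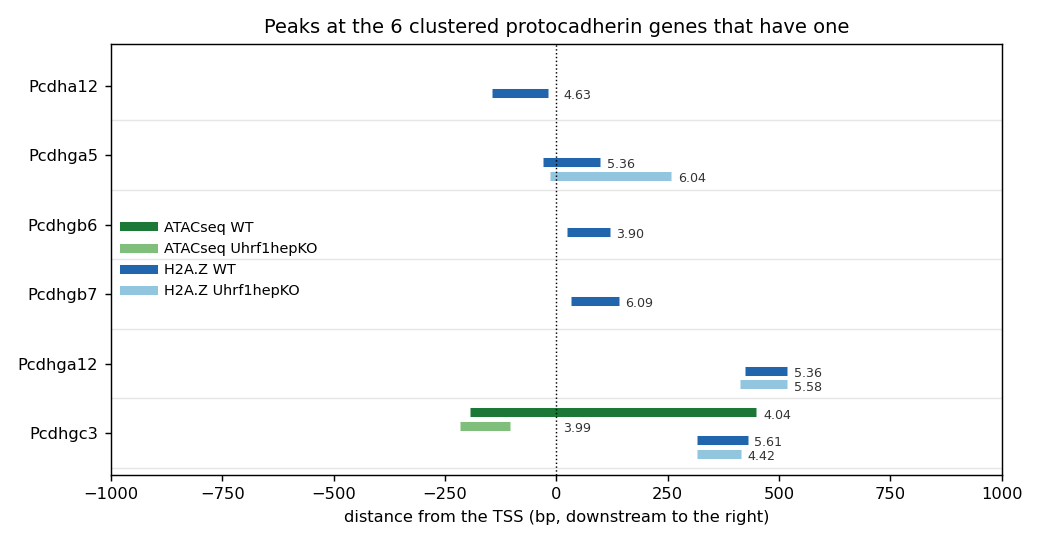
Extent of each peak (bars, coloured by list) around the TSS (x axis, bp, dotted line at the TSS) for the 6 clustered protocadherin genes that have one (y axis), with the fold printed beside each bar. Pcdhgc3 has bars of all 4 colours, and Pcdha12, Pcdhgb6 and Pcdhgb7 have the WT H2A.Z bar alone.

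Set against the start codon of the gene, the H2A.Z summits of the gamma A and B genes with a peak lay close together. Counted from its first base, they were at −80 bp at Pcdhga5, −70 bp at Pcdhgb6, −102 bp at Pcdhgb7 and −64 bp at Pcdhga12 in WT, and at −38 bp at Pcdhga5 and −61 bp at Pcdhga12 in Uhrf1hepKO. At Pcdhga12 the annotated TSS lies 537 bp before the start codon, the longest such distance in the Pcdhg cluster (median 184 bp over 21 genes), which puts its peak farther from the TSS than the others. From the TSS, the summits lay at 41 to 83 bp at Pcdhga5, Pcdhgb6 and Pcdhgb7, and at 473 (WT) and 476 bp (Uhrf1hepKO) at Pcdhga12. The start codon thus brings Pcdhga12 alone closer to the rest, and this spacing was not tested. The summit at Pcdha12 was at −192 bp. At Pcdhgc3 the summits lay inside the coding sequence, 192 bp past the start codon in WT and 190 bp in Uhrf1hepKO.

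The peaks of the clusters had low to middling folds. The 7 WT H2A.Z peaks inside the clusters ranged from percentile 16.8 (Pcdhgb6) to percentile 69.4 (Pcdhgb7) of fold in their list. The 3 Uhrf1hepKO H2A.Z peaks ranged from percentile 26.9 (Pcdhgc3) to 65.0 (Pcdhga5). The ATACseq peaks at Pcdhgc3 lay at percentile 37.2 in WT and 47.4 in Uhrf1hepKO. Among the peaks at TSSs of protein-coding genes they ranked lower, from percentile 8.47 (Pcdhgb6) to 55.0 (Pcdhgb7) in WT H2A.Z, from 15.1 (Pcdhgc3) to 50 (Pcdhga5) in Uhrf1hepKO H2A.Z, and at 24 (WT) and 32.5 (Uhrf1hepKO) in ATACseq. The WT H2A.Z peaks were 95 to 130 bp wide, below the median of 156 bp of their list.

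Across the whole of each cluster, H2A.Z peaks were few and almost all at or just upstream of variable exons. The Pcdha cluster spans 257 kb (chr18:36930184-37187661) and held 2 H2A.Z peaks in WT and no other peak. The peak that is not at Pcdha12 lay at chr18:37178142-37178236 (fold 4.63, 18 reads), in the intron between constant exons of the cluster, 34672 bp past the TSS of Pcdhac2. Its summit is 347 bp from the 5′ end of Gm10544, a processed transcript on the opposite strand. The Pcdhb cluster spans 260 kb (chr18:37264938-37524479) and held no peak of any list. The Pcdhg cluster spans 180 kb (chr18:37661793-37841873), and its peaks were those at the 5 genes above.

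Per 100 kb, the Pcdha cluster held 0.777 WT H2A.Z peaks and the Pcdhg cluster 2.78 in WT and 1.67 in Uhrf1hepKO. Chromosome 18 as a whole held 1.90 and 1.77, and all chromosomes 1.94 and 1.78. Beside these values, H2A.Z peaks in the Pcdhg cluster were about as dense as elsewhere, though the cluster holds many more promoters. In ATACseq the Pcdhg cluster held 0.555 peaks per 100 kb in each genotype, which is 1 peak, against 0.375 (WT) and 0.305 (Uhrf1hepKO) on chromosome 18.

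**Figure D3:**
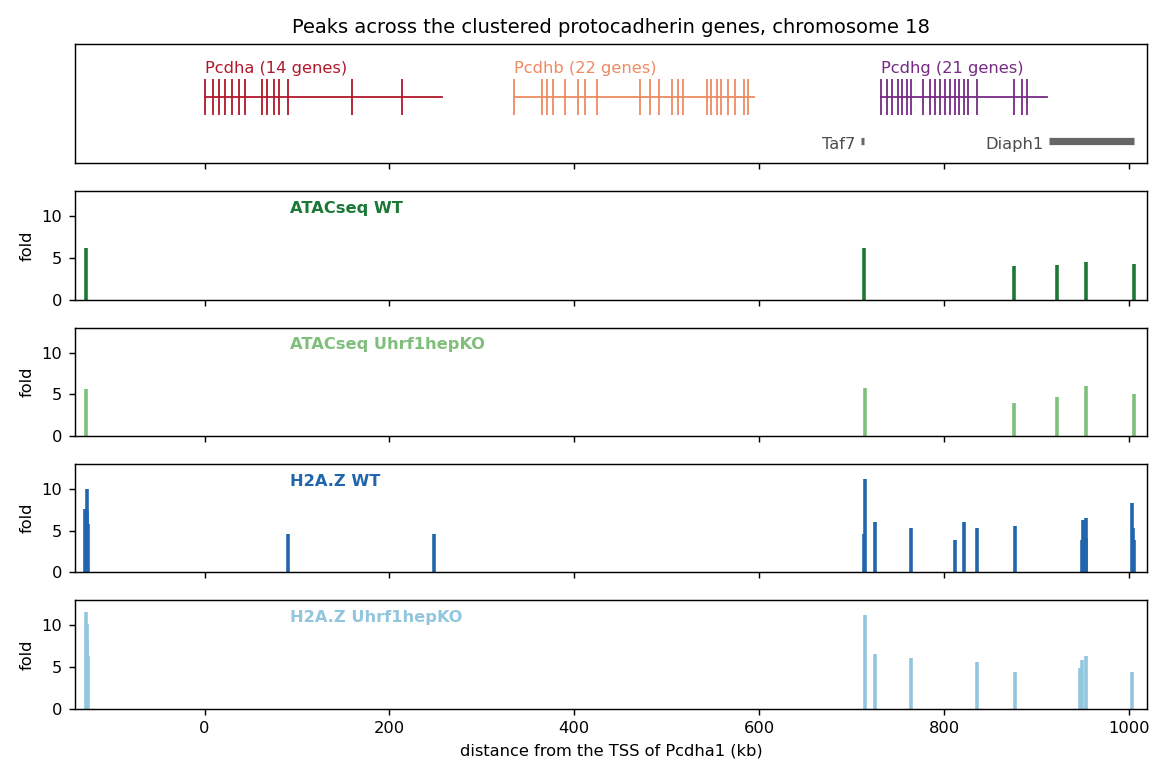
Map of the clusters by distance from the TSS of Pcdha1 (x axis, kb), with the TSSs of the genes as ticks in the top row and, below it, each peak of the 4 lists as a line whose height is its fold (y axis). The ATACseq rows are empty from the start of Pcdha to Taf7, and the Uhrf1hepKO H2A.Z row likewise, while the WT H2A.Z row has 2 peaks in the Pcdha cluster.

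The stretch without peaks reached beyond the clusters themselves. In Uhrf1hepKO, no H2A.Z peak was listed over 839730 bp (chr18:36804644-37644373), which holds the TSSs of 36 members, all 14 Pcdha and all 22 Pcdhb genes, and of 41 protein-coding genes in all. Among these 41 is Taf7, a gene between the Pcdhb and Pcdhg clusters. Its TSS is 170 bp from the H2A.Z peak that ends the span, so it counts as a TSS with a peak. The WT H2A.Z spans below end before this TSS. The list has 337 spans between consecutive peaks, gaps of the assembly included, that are at least as long, with a median of 1 protein-coding TSS in them, and 11 spans that hold at least as many TSSs. In WT the 2 Pcdha peaks divided this stretch. The part over the Pcdhb genes ran for 465747 bp (chr18:37178237-37643983) with 23 protein-coding TSSs, and 944 spans of that list were at least as long, 34 of them with at least as many TSSs. The part over the first 11 Pcdha genes ran for 215191 bp with 14 TSSs, and 77 of 2612 spans that were at least as long held as many. The part from Pcdha12 to the intronic peak ran for 158011 bp with 3 TSSs, and here 605 of 3706 did.

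In ATACseq the span over the Pcdha and Pcdhb genes was 842147 bp in WT and 842177 bp in Uhrf1hepKO, with 40 protein-coding TSSs in each. There were 611 and 632 spans at least as long, of which 16 and 17 held at least as many TSSs. A further span of 161836 bp (WT) and 161813 bp (Uhrf1hepKO) held the TSSs of 18 Pcdhg genes and ended at the Pcdhgc3 peak, and 76 and 80 spans that were at least as long held at least as many TSSs.

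**Figure D4:**
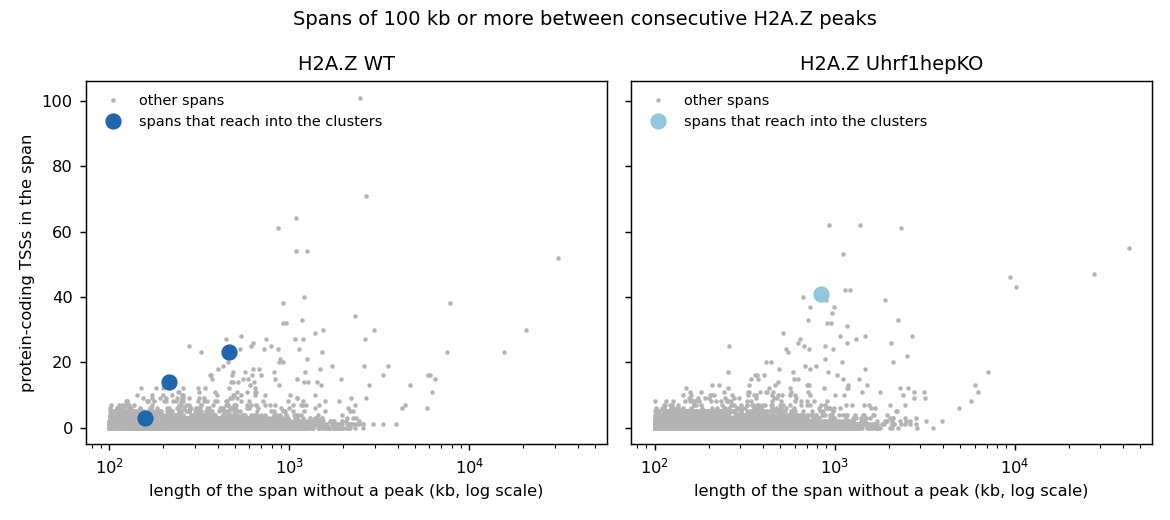
Each span of 100 kb or more between consecutive H2A.Z peaks by its length (x axis, kb, log scale) and the number of protein-coding TSSs in it (y axis), for WT and Uhrf1hepKO, with the spans that reach into the clusters as large points. The Uhrf1hepKO span of 840 kb holds 41 TSSs, that of Taf7 among them. The WT spans, which end before the TSS of Taf7, hold 23, 14 and 3.

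Other coding genes lie in and between these clusters. No peak was within 1 kb of the TSS of Gm42416, Gm37013 or Gm37388, which are annotated as coding genes that run through the clusters, or of Slc25a2, a mitochondrial carrier gene between the Pcdhb and Pcdhg clusters. Taf7, which codes for a subunit of the general transcription factor TFIID and lies between the same clusters, had ATACseq peaks with folds of 6.15 (WT) and 5.76 (Uhrf1hepKO). Its highest H2A.Z fold was 11.2 in both genotypes, above every fold inside the clusters. Its peaks ended the stretch without peaks on the side of the Pcdhg cluster. On the side before Pcdha1, the stretch ended at peaks outside the clusters. In Uhrf1hepKO H2A.Z the nearest of these was 125541 bp from the TSS of Pcdha1.

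Past the last constant exon of Pcdhg, the adjoining 100 kb held 3 ATACseq peaks in each genotype and 7 (WT) and 4 (Uhrf1hepKO) H2A.Z peaks, most of them in Diaph1, a formin gene that regulates actin. At the TSS of Diaph1 the ATACseq folds were 4.28 (WT) and 5.01 (Uhrf1hepKO), and the H2A.Z list had a peak in WT (5.36) and none in Uhrf1hepKO. The TSS of Hdac3, a histone deacetylase gene, lies past these 100 kb, so its peaks are not in the counts above. At this TSS, H2A.Z folds were 7.80 (WT) and 8.60 (Uhrf1hepKO), and an ATACseq peak was listed in WT (4.47) and none in Uhrf1hepKO.

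For a member without a peak, the nearest one was often far away. Over the Pcdhb genes, the distance from the TSS to the nearest WT H2A.Z peak ranged from 86702 bp (Pcdhb1) to 232 kb (Pcdhb10), with a median of 157 kb. To the nearest Uhrf1hepKO H2A.Z peak it ranged from 126503 bp (Pcdhb22) to 379 kb (Pcdhb1). Over the Pcdha genes the median distance was 49.3 kb in WT and 178 kb in Uhrf1hepKO, which follows from the 2 Pcdha peaks that the WT list holds and the Uhrf1hepKO list does not. Over the Pcdhg genes it was 8.29 kb in WT and 12.7 kb in Uhrf1hepKO.

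The comparison of genotypes rests on few peaks. At the TSS, 3 of the 57 genes had an H2A.Z peak in both genotypes (5.26%, against 42.7% of all protein-coding genes) and 3 had one in WT and not in Uhrf1hepKO (5.26%, against 3.30%). No member had one in Uhrf1hepKO and not in WT (Wilson 95% interval up to 6.31%, against 1.77% of all genes). Over all 57 members, most of which have no peak, the share with a WT peak alone was near the background, whose value lies inside the Wilson interval of the members (1.81 to 14.4). Among the 6 members with an H2A.Z peak in WT, 3 had none in Uhrf1hepKO (50%, Wilson 95% interval 18.8 to 81.2), against 7.16% of the 10099 protein-coding genes with a WT peak. In ATACseq, 0 of the 57 members had a peak in WT alone and 0 had one in Uhrf1hepKO alone. The Wilson 95% interval of each count reaches 6.31%. Pcdhgc3 had an ATACseq peak in both genotypes. Over all genes, 6.16% had an ATACseq peak in WT alone and 3.84% in Uhrf1hepKO alone.

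Counted as peaks, 3 of the 7 WT H2A.Z peaks inside the clusters overlapped a Uhrf1hepKO peak (42.9%, Wilson 95% interval 15.8 to 75), against 70.0% of all WT H2A.Z peaks. All 3 Uhrf1hepKO peaks overlapped a WT peak, against 75.6% of all Uhrf1hepKO peaks. In ATACseq the single WT and the single Uhrf1hepKO peak overlapped each other, where 61.3% of all WT and 60.3% of all Uhrf1hepKO ATACseq peaks overlapped one of the other genotype. Overlap in the H2A.Z lists rose with the pileup. Of all WT H2A.Z peaks with 15 reads at the summit, as at Pcdhgb6, 41.0% overlapped a Uhrf1hepKO peak, and of those with 18 reads, as at Pcdha12 and at the peak in the Pcdha intron, 55.9% did. At these pileups a peak of one genotype alone was frequent over the whole list. Of WT peaks with 24 reads, as at Pcdhgb7, 86.2% overlapped. For the 3 genes with a peak in both genotypes, the shares at their pileups were 72.0% at 21 reads (Pcdhga5 and Pcdhga12) and 79.0% at 22 reads (Pcdhgc3) among WT peaks, and 58.5% at 18 reads (Pcdhgc3), 83.3% at 23 reads (Pcdhga12) and 88.8% at 25 reads (Pcdhga5) among Uhrf1hepKO peaks. The difference at Pcdhgb7 has no replicate check, and its nearest Uhrf1hepKO peak was 14315 bp from its summit.

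The promoters of the members hold fewer CpGs than most. Within 500 bp of the TSS, the median was 30.0 CpGs over the 57 genes (6 to 67), against 41.0 over all protein-coding genes. It was 35.5 in Pcdha, 15 in Pcdhb and 33.0 in Pcdhg. The highest count was at Pcdhgc3, with 67, and the lowest at Pcdhb9 and Pcdhb22, with 6 each. The 6 genes with a peak had a median of 38.5 and the 51 without one of 29, but the order was not strict. Pcdhga12 had 12 CpGs and H2A.Z peaks in both genotypes, while Pcdhac2 had 55 and none. The annotated TSS of Pcdhga12 lies 537 bp before its start codon, the longest such distance in the Pcdhg cluster. Its CpG count may depend on that annotation.

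Since H2A.Z and ATACseq peaks are more frequent at promoters rich in CpG, the members were set beside all genes with a like number of CpGs. With 20 to 39 CpGs within 500 bp of the TSS, 2 of 29 members had an H2A.Z peak in WT (Wilson 95% interval 1.91 to 22.0%) and 1 in Uhrf1hepKO (0.611 to 17.2%), where 41.3% and 39.3% of all genes in the class had one. With 40 to 59 CpGs, 2 of 7 members had one in WT (8.22 to 64.1%) and 0 in Uhrf1hepKO (up to 35.4%), against 69.4% and 67.2%. With 10 to 19 CpGs, 1 of 18 members, Pcdhga12, had one in each genotype (0.988 to 25.8%), against 14.4% and 14.1%. The 2 members with 0 to 9 CpGs had none, in a class with 5.68% and 5.14%. The share of all genes lay above the interval of the members from 20 to 59 CpGs and inside it from 10 to 19 CpGs. Pcdhgc3 was the single member with 60 or more CpGs, a class in which 74.0% (WT) and 71.9% (Uhrf1hepKO) of all genes had an H2A.Z peak. In ATACseq, Pcdhgc3 had a peak in each genotype, and 48.1% (WT) and 43.3% (Uhrf1hepKO) of all genes of its class did. No other member did. Of the 29 members with 20 to 39 CpGs 0 had one, against 16.5% (WT) and 15.2% (Uhrf1hepKO), and 0 of the 7 with 40 to 59, against 40.3% and 37.1%. The classes of 10 to 19 and of 0 to 9 CpGs had ATACseq peaks at 4.29% (WT) and 4.16% (Uhrf1hepKO) and at 1.08% and 1.32% of all genes, which lie inside the intervals of 0 of 18 (up to 17.6%) and 0 of 2 members (up to 65.8%).

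**Figure D5:**
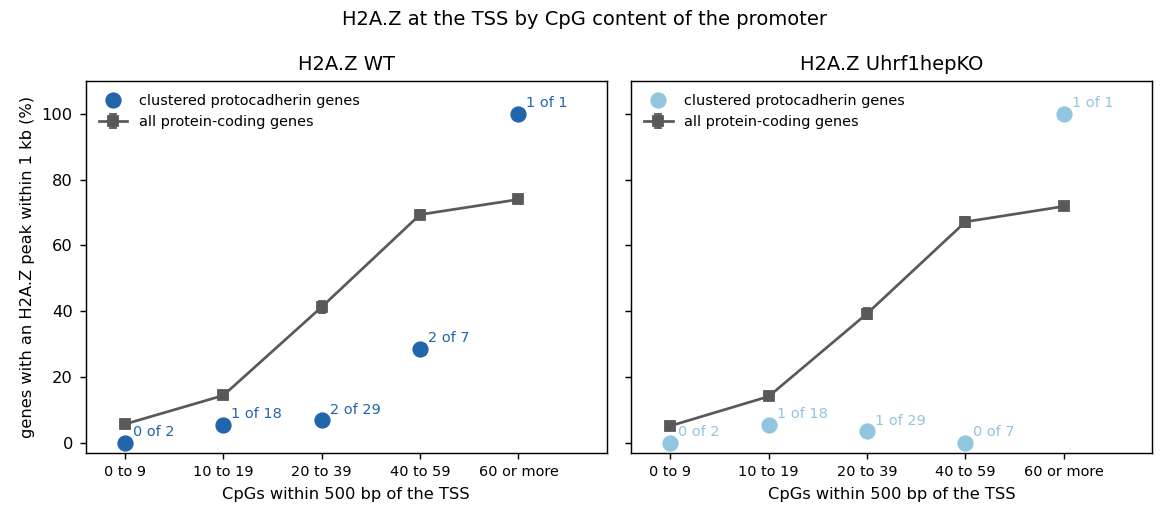
Share of genes with H2A.Z at the TSS (y axis, percent) by the CpGs counted 500 bp to either side (x axis), for all protein-coding genes (squares, Wilson 95% interval) and the clustered protocadherin genes (circles, with their counts). In the classes up to 59 CpGs the circles lie below the squares in both genotypes, and the last class holds Pcdhgc3 alone.

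The core of the CTCF motif, searched on both strands within 500 bp of the TSS as the letters CCA, AG and GGC in this order with 2 bases of any kind after CCA and after AG, was found at 1 of the 57 members (1.75%, Wilson 95% interval 0.310 to 9.29), which was Pcdhac2, and at 7.09% of all protein-coding genes. No member with a peak held these letters in this window. Other forms of the motif were not searched, so these shares do not show how many promoters hold a CTCF site.

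Members resemble each other in sequence, and reads with several placements could be lost. Within 1 kb of the TSS, the share of 75-base stretches in which every 32-mer occurs again in the genome had a median of 0% over the 57 genes and a maximum of 12.8% (Pcdha6), with 28 genes above 0. It was highest in Pcdha (median 5.63%). Under the 12 peaks inside the clusters, 0% of the 32-mers occurred again. The treatment of such reads by the authors is not given in the sources used here, and its part in the low counts was not tested.

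No ATACseq peak was at the TSS of a non-clustered protocadherin gene, the family most like the members. For 0 of 12 genes the Wilson 95% interval reached 24.2%, against 26.4% (WT) and 24.1% (Uhrf1hepKO) of all protein-coding genes. Of these 12 genes, which code for related adhesion proteins from single loci, 3 had H2A.Z at the TSS in each genotype (25.0%, Wilson 95% interval 8.89 to 53.2), namely Pcdh1 (6.82 in WT and 6.27 in Uhrf1hepKO), Pcdh10 (4.63 and 4.65) and Pcdh17 (4.63 and 3.95). This H2A.Z interval overlapped those of the clustered genes. It also held the 46.0% (WT) and 44.5% (Uhrf1hepKO) of all protein-coding genes. The 15 genes for regulators of the clusters include those for CTCF, the cohesin subunits, DNA methyltransferases and Setdb1. An H2A.Z peak was at 10 in WT (66.7%) and 8 in Uhrf1hepKO (53.3%), against 46.0% and 44.5% of all protein-coding genes. An ATACseq peak was at 5 (33.3%) and 4 (26.7%), against 26.4% and 24.1%. Each share of all protein-coding genes lies inside the Wilson interval of the regulators. The highest H2A.Z folds among them were at Setdb1, an H3K9 methyltransferase (11.2 in both genotypes), and at the cohesin subunit Rad21 (8.77 and 8.37) and the cohesin release factor Wapl (8.04 and 8.37).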

How the data were processed

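ATACseq and H2A.Z ChIPseq peak lists of 1 WT and 1 Uhrf1hepKO liver were used. BWA-MEM (alignment to GRCm38.p4), PICARD and MACS2 (peaks of each library on its own) were run by the authors. The submitters' processing notes also name FastQC 0.11.5 and Trimmomatic. The MACS2 version, any control library and any shift of ATACseq reads are not given in the sources used here. Each deposited peak has a display score, a fold (the ratio of pileup to background), and −log10 p- and q-values, all made by the authors' caller. The ATACseq lists hold broad peaks, whose deposited values are averages over the region, and the H2A.Z lists narrow peaks with values at a deposited summit, which is a value of another kind, an offset in bp into the peak. Folds are not scaled between libraries, so the lists were compared by position.

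Chromosomes 1 to 19, X and Y were kept, with GENCODE vM21 genes and the RefSeq FASTA of GRCm38. Windows of 1 kb on either side of each TSS were searched for peaks, with 1 bp of overlap as the minimum. MACS2 gives a fold as pileup plus 1 over background plus 1. The steps of the H2A.Z folds gave backgrounds of 3.10 (WT) and 3.30 (Uhrf1hepKO) reads per base, with 94.1% and 91.7% of peaks on whole reads (tolerance 0.01 reads) and the Poisson p-value of the pileup matching the deposited one in 99.5% and 99.7% of these. Listed H2A.Z peaks had a median of 21 (WT) and 23 (Uhrf1hepKO) reads, and the spread between mice is unknown. ATACseq folds were not converted, so that depth is unknown.

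Genes named are the members with a peak within 1 kb, every peak inside the clusters, the members nearest to or farthest from a peak, coding neighbours within 100 kb, 12 non-clustered protocadherins and the 3 regulators with the highest H2A.Z folds. Zfp274 was on the list of regulators and was not matched by symbol. The members and lists were chosen with earlier results of these data known. Gm10545 and Gm10544 were named after their values were seen, as was Hdac3. Distances from the start codon were not planned beforehand. No sequence of the clusters is reported here. Windows, TSSs, peak thresholds, overlap rules and members were varied 1 at a time, and a test with Pcdhgb8 as a member was added after seeing the data. The scripts ran on Python 3.11.15 with numba 0.67.0, pandas 2.3.3, numpy 2.4.6, matplotlib 3.10.9 and scipy 1.17.1, and were tested on simulated data.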

Additional observations from a re-analysis of the deposited data

How the results depend on the processing

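Of 76 values under alternative settings for 14 results, 57 stayed within their counting interval or within 1.5 times the count, and 19 moved. The windows of 500 bp and 2 kb, the TSSs of all transcripts, a q-value of at most 0.01, and summits or centres in place of whole peaks left each value as it was, and Pcdhgb8 as a member changed the shares only through the number of genes. The window of 5 kb raised the H2A.Z share from 10.5% to 15.8% (9 genes) in WT and from 5.26% to 7.02% (4 genes) in Uhrf1hepKO and left the ATACseq shares as they were. The share of all protein-coding genes is given at 1 kb alone, so these 5 kb shares have no background beside them. When peaks under the median fold were left out, the ATACseq share of the members became 0% and the ATACseq peaks in the clusters 0 in each genotype, since the Pcdhgc3 peaks lie below it, and the WT H2A.Z peaks in the clusters fell from 7 to 4. By cluster, the ATACseq share was 0% in Pcdha and in Pcdhb, and 0% without the C-type genes. The H2A.Z share was 0% in Pcdhb in each genotype, 0% in Pcdha in Uhrf1hepKO, and 23.8% in Pcdhg in WT. With an overlap of 50% of both peaks, the Pcdhgc3 ATACseq peaks no longer overlapped (0%, from 100%). The same rule cut the overlapping H2A.Z peaks from 42.9% to 28.6% in WT and from 100% to 66.7% in Uhrf1hepKO. Clusters extended by 10 kb held 8 (WT, from 7) and 4 (Uhrf1hepKO, from 3) H2A.Z peaks, with the ATACseq counts as before. Within 250 bp of the TSS the median was 13 CpGs and the CTCF core was at 0% of the members, against 23 CpGs and 3.74% over all protein-coding genes. No paired analysis was possible because there is 1 library per condition. Sites under about 12 (WT) or 13 (Uhrf1hepKO) reads, the 1st percentile of listed H2A.Z peaks, are mostly missing from the lists, so a gene without a peak may carry H2A.Z below that level.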
